A study of Arabidopsis thaliana with 114 samples.

Results

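The genes described here are the CC-type glutaredoxins GRXS1 to GRXS9 and GRXS11 of Arabidopsis thaliana, 10 of the 28712 gene IDs counted. They were taken by locus, from a list of gene IDs and names with no threshold on a measured value. Messenger RNA was sequenced separately from the shoot and the root of seedlings raised on 1% sucrose and 1 mM KNO3. Seedlings then received nitrogen (N: 20 mM each of KNO3 and NH4NO3, 60 mM nitrogen in all) or 20 mM KCl as the control, and were sampled at 5, 10, 15, 20, 30, 45, 60, 90 and 120 min, with untreated seedlings at time 0. The time labels carry no unit and were read as minutes. The control carried chloride and no added nitrogen, so nitrate, ammonium and the total salt given cannot be told apart. Each of the 38 groups had 3 libraries, 114 in all. The labels do not say whether the libraries of a group came from separate cultures, so p-values measure the spread between these libraries. The protocols name neither an accession nor a mutant, and the groups differed by organ, supply and time only.

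Glutaredoxins are small proteins that use glutathione to reduce disulfides or to carry iron-sulfur clusters. The CC type, also called ROXY, is found in land plants. Its members carry an active site that opens with a pair of cysteines, and several of them bind TGA transcription factors, and, through a C-terminal ALWL motif, the TOPLESS co-repressor. GRXS3, GRXS4, GRXS5, GRXS7 and GRXS8 are known as nitrate-responsive genes whose response needs cytokinin signalling, and lowering their RNA together lengthened the primary root in earlier work. GRXS11 is also known as CEPD1, a polypeptide made in the shoot phloem when roots report a lack of nitrogen through CEP peptides, and moved to the root, where it raises nitrate uptake.

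All 10 genes had 1 annotated transcript with 1 exon, and none overlapped another annotated gene (RefSeq annotation, build TAIR10.1). GRXS1 (AT1G03020) lies at chr1:697919-698591 (minus strand), GRXS2 (AT5G18600) at chr5:6183166-6184038 (minus), GRXS6 (AT3G62930) at chr3:23261442-23261927 (minus), GRXS9 (AT2G30540) at chr2:13011105-13012043 (minus) and GRXS11 (AT1G06830) at chr1:2097106-2097655 (plus). The other 5 are neighbours on the plus strand of chromosome 4, in the order GRXS8 (AT4G15660), GRXS7 (AT4G15670), GRXS4 (AT4G15680), GRXS5 (AT4G15690) and GRXS3 (AT4G15700), within the 12554 bases of chr4:8925571-8938124. The gaps between them were 1803 to 2520 bases, and no other annotated gene lay in a gap. Their coding regions of 309 bases were 88.3 to 93.2% identical over the 10 pairs, whereas the other 26 pairs of equal coding length were 54.0 to 72.5% identical. The active-site stretch is shown for every member because it is what places them in the CC class. The capitals mark the codons for 2 cysteines, a variable residue and a serine, inside 60 bases of coding sequence, 5′ to 3′ on the gene's strand, from RefSeq's TAIR10.1.
GRXS1: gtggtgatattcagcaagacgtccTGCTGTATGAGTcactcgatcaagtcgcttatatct
GRXS2: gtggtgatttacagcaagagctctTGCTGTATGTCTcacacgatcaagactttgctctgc
GRXS3: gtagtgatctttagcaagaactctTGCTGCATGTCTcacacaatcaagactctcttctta
GRXS4: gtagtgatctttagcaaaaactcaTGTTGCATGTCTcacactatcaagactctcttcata
GRXS5: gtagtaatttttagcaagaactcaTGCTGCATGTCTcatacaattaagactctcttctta
GRXS6: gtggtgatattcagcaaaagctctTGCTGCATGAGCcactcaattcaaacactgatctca
GRXS7: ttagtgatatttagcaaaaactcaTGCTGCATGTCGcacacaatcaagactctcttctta
GRXS8: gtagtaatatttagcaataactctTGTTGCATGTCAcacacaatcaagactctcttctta
GRXS9: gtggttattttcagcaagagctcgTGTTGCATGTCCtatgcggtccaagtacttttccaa
GRXS11: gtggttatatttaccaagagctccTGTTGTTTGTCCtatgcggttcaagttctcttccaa

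All 10 members had serine, and 0 of 10 had cysteine, at the fourth place of this site. The first cysteine was codon 21 in every member. The last codons spelled alanine, leucine, tryptophan and leucine in 5 members, which were the 5 neighbours on chromosome 4. The neighbours' likeness bears on how far their reads can be told apart, so the closest pair, GRXS7 (chr4:8929237-8929536) and GRXS8 (chr4:8925928-8926227), is printed over the first 300 coding bases on the plus strand, with the 21 bases that differ in capitals.
GRXS7: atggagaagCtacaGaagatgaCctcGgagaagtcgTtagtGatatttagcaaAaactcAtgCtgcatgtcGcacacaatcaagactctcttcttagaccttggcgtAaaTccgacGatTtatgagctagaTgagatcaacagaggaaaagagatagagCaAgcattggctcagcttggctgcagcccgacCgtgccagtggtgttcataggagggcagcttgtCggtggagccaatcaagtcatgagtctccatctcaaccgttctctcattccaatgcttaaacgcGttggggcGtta
GRXS8: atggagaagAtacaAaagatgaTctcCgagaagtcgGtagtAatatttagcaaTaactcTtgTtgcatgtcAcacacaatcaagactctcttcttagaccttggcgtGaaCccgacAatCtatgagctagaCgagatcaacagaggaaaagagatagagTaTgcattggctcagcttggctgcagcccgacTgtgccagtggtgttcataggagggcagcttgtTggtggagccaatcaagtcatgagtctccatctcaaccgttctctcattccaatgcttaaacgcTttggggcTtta

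Of all 50-base windows of a transcript, 0.613% in GRXS4, 1.91% in GRXS7, 3.08% in GRXS5, 4.04% in GRXS8 and 4.74% in GRXS3 were found exactly elsewhere, against 0 in each of the other 5 members. Windows within 2 mismatches of another member made up 6.97% in GRXS5, 10.3% in GRXS4, 12.1% in GRXS3, 15.2% in GRXS8 and 19.9% in GRXS7. No 100-base window of any member was repeated exactly, and 3.81% in GRXS8 and 4.68% in GRXS7 lay within 2 mismatches of another member. The counts of the 5 neighbours are therefore uncertain where reads fell in such windows, since how the counting treated them is not given in the sources used here. The count files of the root held 2454057 to 29036747 reads per library on the line for reads without a unique place, and those of the shoot held 0 on that line, so such reads were recorded differently in the 2 organs.

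The 250 bases before the annotated start of the 5 neighbours were compared as well. The longest run present in all 5 was TTAGCTGCAAG, 11 bases long, in capitals in the windows printed here on the plus strand, from chr4:8925321-8925570 (GRXS8), chr4:8928781-8929030 (GRXS7), chr4:8931367-8931616 (GRXS4), chr4:8934046-8934295 (GRXS5) and chr4:8937108-8937357 (GRXS3).
GRXS8: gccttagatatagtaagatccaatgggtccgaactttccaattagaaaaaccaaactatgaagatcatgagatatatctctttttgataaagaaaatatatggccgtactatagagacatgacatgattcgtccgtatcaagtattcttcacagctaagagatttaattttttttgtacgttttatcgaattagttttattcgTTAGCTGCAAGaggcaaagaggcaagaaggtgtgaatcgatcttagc
GRXS7: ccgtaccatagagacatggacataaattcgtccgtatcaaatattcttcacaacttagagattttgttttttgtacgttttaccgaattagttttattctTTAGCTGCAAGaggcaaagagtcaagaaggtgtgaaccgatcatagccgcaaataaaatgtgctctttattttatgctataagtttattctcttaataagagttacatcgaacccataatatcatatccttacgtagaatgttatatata
GRXS4: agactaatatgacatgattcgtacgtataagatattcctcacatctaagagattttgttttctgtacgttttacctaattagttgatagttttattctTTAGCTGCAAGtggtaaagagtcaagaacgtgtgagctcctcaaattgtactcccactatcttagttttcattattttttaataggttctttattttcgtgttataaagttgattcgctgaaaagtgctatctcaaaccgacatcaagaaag
GRXS5: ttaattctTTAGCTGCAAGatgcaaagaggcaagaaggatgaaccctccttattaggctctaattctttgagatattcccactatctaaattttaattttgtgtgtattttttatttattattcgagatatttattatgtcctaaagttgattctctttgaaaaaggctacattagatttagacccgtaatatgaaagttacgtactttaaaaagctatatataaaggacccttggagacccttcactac
GRXS3: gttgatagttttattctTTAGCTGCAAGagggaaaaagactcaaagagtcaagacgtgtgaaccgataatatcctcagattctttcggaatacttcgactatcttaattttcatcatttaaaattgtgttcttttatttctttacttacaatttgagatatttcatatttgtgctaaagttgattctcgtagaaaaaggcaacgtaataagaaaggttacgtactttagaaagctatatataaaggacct

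On either strand this run occurred in 6 of 27443 such windows of the annotation (0.0219%), and 5 of these 6 were the neighbours' own. It was in 0 of the 5 other members. The run was read off these windows and not taken from a list of motifs, so these counts are a description. The neighbours' coding regions are alike as well, and a link of the run to the response to N was not tested. It ended 36 bases before the start in GRXS8, 139 in GRXS7, 141 in GRXS4, 222 in GRXS3 and 231 in GRXS5. TGACG, the core bound by TGA factors, was searched on both strands and was in 0 of 10 members' windows, against 18.6% of all windows. AGATT, the core bound by type-B cytokinin response regulators, was in 8 of 10, against 63.7% of all windows.

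Counts assigned to genes ranged from 5710272 to 43570824 in the shoot and from 13878732 to 143269564 in the root. A shoot library of KCl at 90 min held 1302 counts and was left out, which left 2 libraries in that group and 113 in all. In the root the 12 libraries of 10 and 15 min stood apart from the rest: they lay at 105 to 145 on the first principal component (62.2% of the variance), and the other 45 at -43.6 to -24.5. In the shoot the libraries of those times lay within the range of the others. The 5 shoot markers chosen summed to 3987 to 7640 CPM (counts scaled to a common library size) in shoots with N and 47.8 to 460 CPM in roots with N, against 3677 to 8554 CPM in shoots with KCl and 48.5 to 339 CPM in roots with KCl, and no marker was at 0 in every library of a group. The 5 root markers summed to 1.42 to 12.6 CPM in shoots with N and 143 to 445 CPM in roots with N, against 1.23 to 10.9 CPM in shoots with KCl and 100 to 677 CPM in roots with KCl. At 120 min the root markers summed to 143 to 158 CPM in roots with N and 188 to 241 CPM in roots with KCl, with no overlap, and over all times 1 of the 5 was called higher and 3 lower with N in the root. Of the shoot markers, 2 were called lower with N in each organ. The part of these shifts in the N effects was not tested. With bulk tissue, more cells of a type and more RNA per cell cannot be told apart.

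The first question was which members differed between N and KCl, and when. In the shoot, 7 of the 9 members tested were called over the time course (GRXS2 to GRXS8), and GRXS9 and GRXS11 did not pass the test. In that comparison 47.4% of all genes tested were called, in either direction. All 7 members were higher with N at their time of smallest p, and 0 were lower. GRXS1 had too few counts to be tested, with at most 2 in any group. In the root, 5 of the 6 members tested were called, with 61% of all genes called. GRXS4, GRXS5, GRXS6 and GRXS8 were higher with N there and GRXS9 was lower, each at its time of smallest p. GRXS1, GRXS2, GRXS3 and GRXS7 had too few root counts to be tested. Members low without N could be tested only because they were high with N, so these counts of members are descriptions. Levels are CPM over a library size scaled by TMM within each organ. Called means a Benjamini-Hochberg adjusted p under 0.05 in edgeR's quasi-likelihood test. Log2 fold changes are those of N over KCl unless another comparison is named.

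Taking each time by itself, 28 of 81 tests of a member were higher in the shoot and 0 lower, where 8.08% of all gene tests were higher and 7.25% lower. In the root 17 of 54 were higher and 1 lower, where 8.07% were higher and 8.62% lower. The number of members higher with N in the shoot was 0 at 5 min, 1 at each of 10, 15 and 20 min, 2 at 30, 4 at 45, 5 at 60 and 7 at both 90 and 120 min. The share of all genes called higher at these 9 times was 0.0144, 0.833, 1.53, 2.56, 3.95, 12.3, 13.7, 18.8 and 19.1%. In the root it was 0 at 5 and 20 min, 1 at 10 and 15 min, 2 at 30 and 45 min, 4 at 60, 3 at 90 and 4 at 120 min, beside, in order of time, 1.2, 8.02, 8.26, 2.68, 3.31, 7.78, 14.5, 8.27 and 18.6% of all genes. At 120 min all N libraries stood above all KCl libraries for 7 of 9 members in the shoot (24.8% of genes) and 5 of 6 in the root (29.1%), and below them for 1 in the shoot (24.6%). The median log2 fold change of the members tested at 120 min was 6.80 in the shoot, or 4.13 with genes of an all-zero KCl group at their bound, beside -0.03 over all genes. In the root it was 2.95, beside 0.03 over all genes. These counts of members and these medians cover only the members that passed the filter on low counts. Members low without N had to be high with N to pass it. In the shoot these were GRXS4, GRXS5, GRXS6, GRXS7 and GRXS8, and in the root GRXS4, GRXS5 and GRXS8. The shares over all genes are therefore given beside the members as a description, and not as a test of them as a group.

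**Figure D1:**
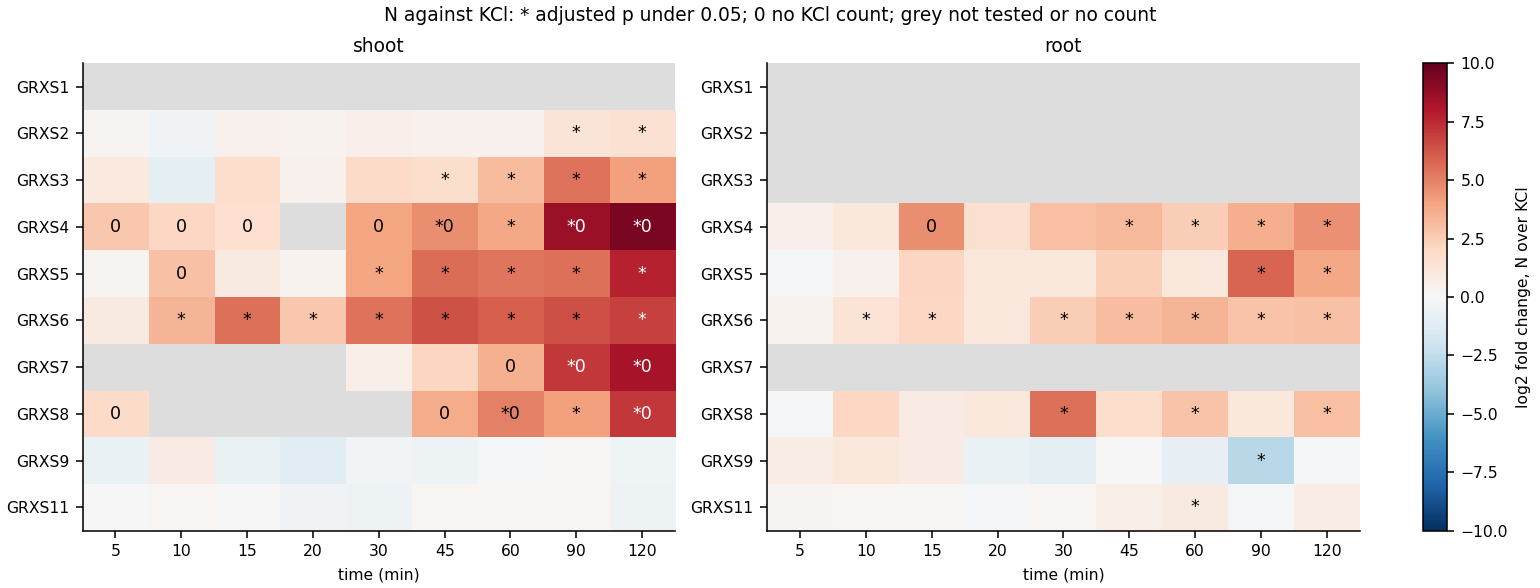
Heat map of the log2 fold change of N over KCl for each of the 10 members (rows) at the 9 times in min (columns), shoot left and root right; a star marks a test called at adjusted p under 0.05, a 0 marks a KCl group without a count, and grey cells were not tested or had no count. GRXS6 is called at every time from 10 min in the shoot, and at 10 and 15 min and from 30 min in the root, and the neighbours of chromosome 4 are first called between 30 and 90 min.

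GRXS6 was the earliest member to be called, in both organs. In the shoot at 10 min it had 0.852, 1.11 and 2.58 CPM with N, against 0, 0.244 and 0.162 CPM with KCl. The libraries did not overlap, and the log2 fold change was 3.40 (SE 0.743, adjusted p = 0.00751). Without KCl replicate 1 or N replicate 3 this call was lost, with adjusted p up to 0.135, while at 15 min (5.49, SE 1.02, adjusted p = 0.000414) it was kept whichever library was left out. At later times, with N the shoot groups averaged 4.89 ± 1.499 CPM at 30 min, 13.9 ± 4.89 at 60 min and 29.1 ± 7.04 at 120 min (SD, n = 3 each), whereas no KCl group averaged over 0.308 CPM. At 120 min the libraries held 21.6, 35.6 and 30.1 CPM with N, against 0.402, 0.051 and 0.338 CPM with KCl, a log2 fold change of 6.80 (SE 0.591, adjusted p = 9.7e-13). The 3 N libraries were far above the 3 KCl libraries.

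In the root GRXS6 had 1.12, 2.35 and 3.38 CPM with N at 10 min, against 0.955, 0.673 and 1.02 CPM with KCl (log2 fold change 1.38, SE 0.354, adjusted p = 0.00552). The lowest N library stood just above the highest KCl library, and without N replicate 3 the adjusted p was 0.0754. This time and 15 min are those whose 12 root libraries stood apart; N and KCl libraries were both among them, and the part of that in the result was not tested. At 20 min the test did not pass (adjusted p = 0.0878), although the libraries did not overlap (1.69, 1.72 and 1.75 CPM with N, against 0.74, 1.18 and 0.607 CPM with KCl), and it passed at each time from 30 min on. At 60 min the root libraries held 6.29, 6.35 and 10.3 CPM with N, against 0.847, 0.79 and 0.581 CPM with KCl, a log2 fold change of 3.37 (SE 0.364, adjusted p = 1.19e-09). At 120 min they held 7.70, 7.80 and 7.70 CPM with N, against 0.849, 1.32 and 0.904 CPM with KCl, a log2 fold change of 2.91 (SE 0.341, adjusted p = 6.1e-09). From 60 min on the root level with N stayed between group means of 6.94 and 7.73 CPM.

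**Figure D2:**
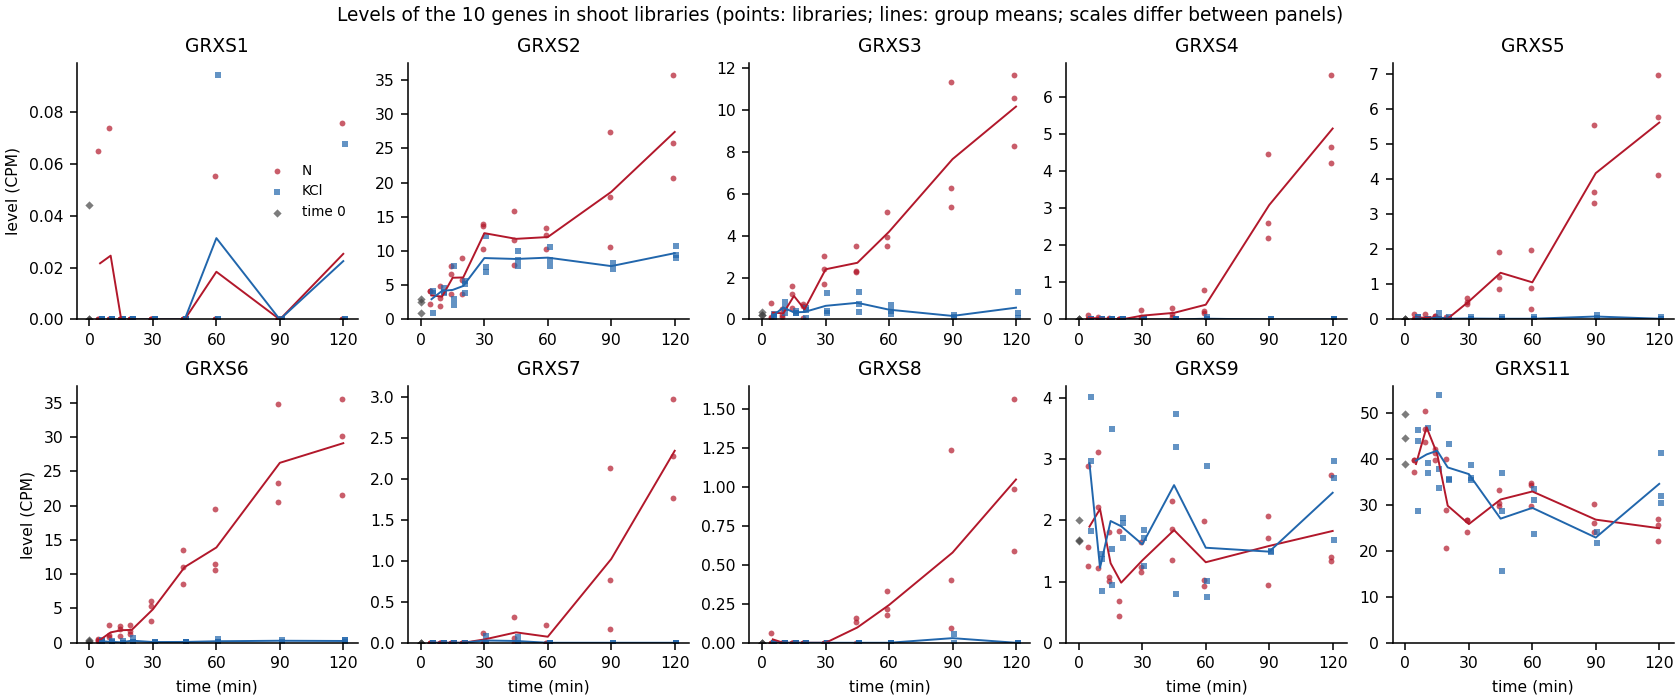
CPM in each shoot library (points) with lines through the group means, against time in min, 1 panel per member with its own vertical scale; N and KCl are drawn in separate colours with time 0 as the untreated start. GRXS6 with N reaches 29.1 CPM and GRXS2 27.4 CPM at 120 min, while GRXS11 lies lower with N than with KCl at that time.

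GRXS3 was the neighbour with the most shoot RNA. At 60 min its shoot libraries held 3.5, 3.95 and 5.14 CPM with N, against 0.708, 0.283 and 0.417 CPM with KCl (log2 fold change 3.17, SE 0.626, adjusted p = 0.000111), and at 120 min 11.7, 10.6 and 8.29 CPM with N, against 1.32, 0.306 and 0.0677 CPM with KCl (4.13, SE 0.621, adjusted p = 6.13e-07). Groups did not overlap at either time. The first call, at 45 min (1.75, SE 0.596, adjusted p = 0.0262), was lost without KCl replicate 1, KCl replicate 3 or N replicate 3, with adjusted p up to 0.126.

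GRXS4 and GRXS5 had next to no counts in shoots with KCl. GRXS5 at 120 min had 6.97, 5.78 and 4.12 CPM with N, against 0, 0 and 0.0677 CPM with KCl, which is 242 counts with N, against 1 with KCl, and a ratio of 281 (95% interval 49.96 to 11143; adjusted p = 1.22e-08). GRXS4 had 6.58, 4.64 and 4.22 CPM with N, against 0 in each KCl library, so that 224 counts with N stood against 0 with KCl and the level was at least 86.7-fold higher with N (adjusted p = 4.06e-07). Bounds use a floor of 3 counts over a group, and intervals and bounds cover counting error only. GRXS5 was called from 30 min (23 counts with N, against 1 with KCl, adjusted p = 0.0238) and GRXS4 from 45 min (8 counts with N, against 0 with KCl, at least 2.98-fold higher, adjusted p = 0.0362). The GRXS5 call at 30 min was lost without KCl replicate 1, KCl replicate 3 or N replicate 1 (adjusted p up to 0.112), the GRXS4 call at 45 min when any library other than N replicate 3 was left out (up to 0.122), and the GRXS4 call at 60 min (18 counts with N, against 1 with KCl, adjusted p = 0.0123) without KCl replicate 2, KCl replicate 3 or N replicate 2 (up to 0.0964). GRXS5 from 45 min and GRXS4 from 90 min were called whichever library was left out.

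GRXS7 and GRXS8 came last and lowest of the neighbours. GRXS7 in the shoot at 120 min had 2.98, 2.28 and 1.76 CPM with N, against 0 in each KCl library (101 counts with N, against 0 with KCl, at least 39.1-fold higher, adjusted p = 0.000212). GRXS8 had 1.57, 0.989 and 0.588 CPM with N, against 0 in each KCl library (44 counts with N, against 0 with KCl, at least 17.0-fold higher, adjusted p = 0.000652). Every N library of both genes therefore stood above every KCl library. Earlier calls rested on few counts. GRXS8 at 60 min (12 counts with N, against 0 with KCl, adjusted p = 0.0277) was lost when any KCl library or N replicate 3 was left out (up to 0.0799), GRXS8 at 90 min (26 counts with N, against 1 with KCl, adjusted p = 0.0225) without KCl replicate 1 or N replicate 1 (up to 0.178), and GRXS7 at 90 min (42 counts with N, against 0 with KCl, adjusted p = 0.00598) without KCl replicate 1 (0.0588). Over the whole time course DESeq2's likelihood-ratio test did not call GRXS7 (adjusted p = 0.999) or GRXS8 (0.827) in the shoot.

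GRXS2 had counts in every shoot group, with N and with KCl. At 120 min it had 35.7, 25.8 and 20.7 CPM with N, against 10.7, 8.92 and 9.47 CPM with KCl, a log2 fold change of 1.5 (SE 0.388, adjusted p = 0.00186), with no overlap. The call at 90 min (18.7 ± 8.42 CPM with N, n = 3, and 7.80 ± 0.687 with KCl, n = 2; log2 fold change 1.25, SE 0.447, adjusted p = 0.024) was lost without KCl replicate 1, KCl replicate 3 or N replicate 1, with adjusted p up to 0.161. In the root GRXS2 had at most 8 counts in any group.

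**Figure D3:**
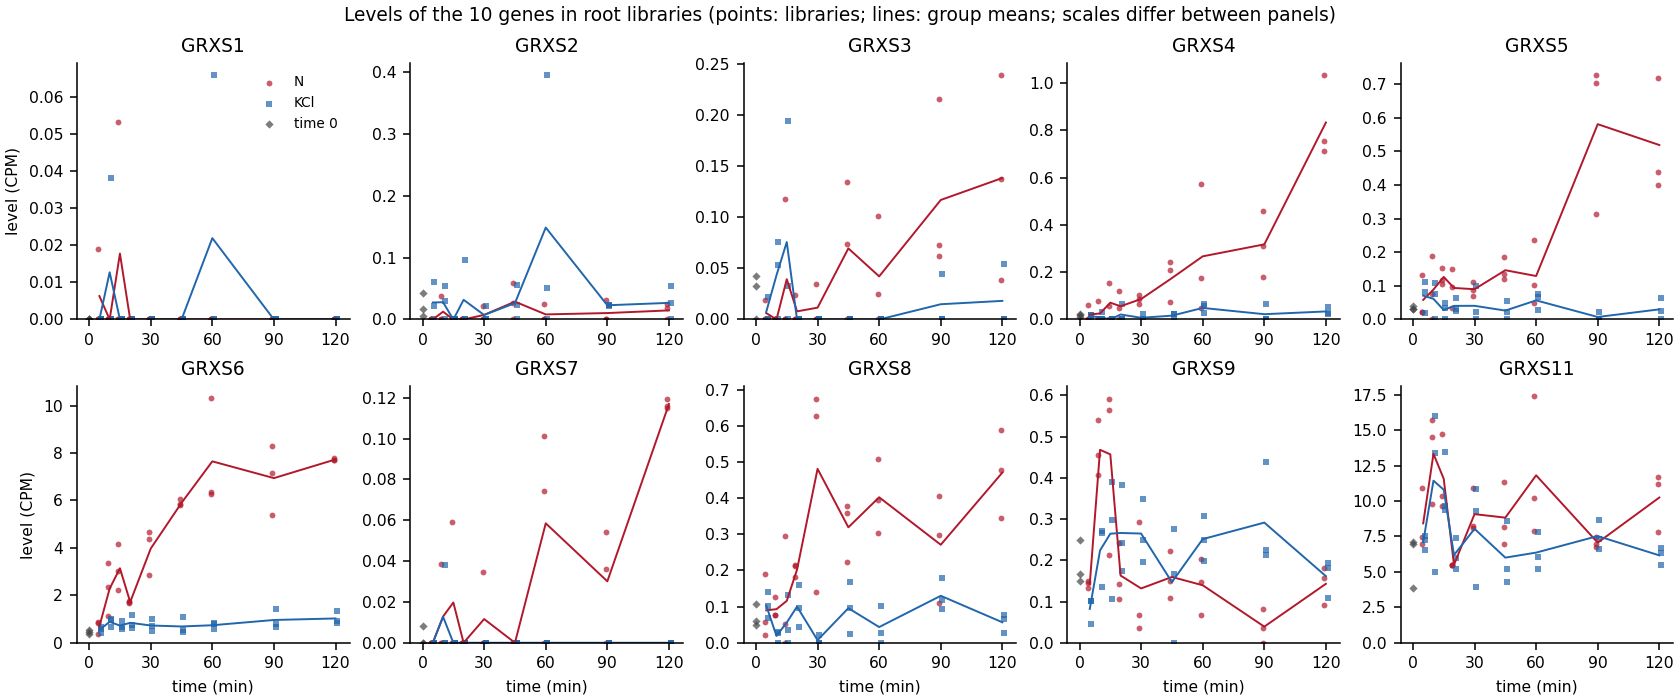
CPM in each root library (points) with lines through the group means, against time in min, drawn as for the shoot, 1 panel per member with its own vertical scale. GRXS6 with N levels off near 7.73 CPM, and GRXS4, GRXS5 and GRXS8 reach no more than 1.03 CPM in any library.

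In the root the neighbours followed another order. GRXS8 was called first, at 30 min, with 0.628, 0.675 and 0.139 CPM with N, against 0, 0.0218 and 0 CPM with KCl (55 counts with N, against 1 with KCl, ratio 63.1, 95% interval 10.9 to 2535, adjusted p = 2.57e-05). At 120 min it had 0.478, 0.345 and 0.589 CPM with N, against 0.0274, 0.0779 and 0.0645 CPM with KCl (log2 fold change 2.99, SE 0.677, adjusted p = 0.000559). It was not called at 45 or 90 min. GRXS4 at 120 min had 1.03, 0.713 and 0.754 CPM with N, against 0.0548, 0.026 and 0.0215 CPM with KCl (log2 fold change 4.54, SE 0.82, adjusted p = 3.2e-05). GRXS5 had 0.4, 0.437 and 0.718 CPM with N, against 0, 0.026 and 0.0645 CPM with KCl (log2 fold change 3.90, SE 0.758, adjusted p = 8.3e-05). In all 3 genes the N libraries stood above the KCl libraries.

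GRXS5 was called from 90 min (56 counts with N, against 1 with KCl, ratio 75.6, 95% interval 13.0 to 3039, adjusted p = 6.6e-06), and GRXS4 from 45 min (18 counts with N, against 2 with KCl, ratio 10.9, 95% interval 2.60 to 96.7, adjusted p = 0.034). The GRXS4 call at 45 min was lost when any library other than N replicate 1 was left out, with adjusted p up to 0.157, and that at 60 min (26 counts with N, against 4 with KCl, adjusted p = 0.0488) when any KCl library or N replicate 3 was left out, up to 0.43. From 90 min GRXS4 was called whichever library was left out. GRXS3 had 35 counts with N, against 2 with KCl at 120 min (ratio 9.26, 95% interval 2.38 to 79.5) and GRXS7 27 counts with N, against 0 with KCl (at least 4.76-fold higher); both were below the filter and were not tested; with no filter on low counts both were called over the time course, 7 members in all. The ratios are of counts over library size.

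Summed over the 5 neighbours, the shoot had 0.372 to 1.20 CPM with N from 10 to 20 min, then 3.06 ± 0.593 CPM at 30 min, 5.97 ± 1.64 at 60, 16.5 ± 7.11 at 90 and 24.3 ± 5.39 at 120 min (SD, n = 3 each). With KCl the sum stayed between 0.228 and 0.841 CPM. In the root the sum with N was 0.681 ± 0.258 CPM at 30 min, 0.899 ± 0.539 at 60, 1.32 ± 0.358 at 90 and 2.08 ± 0.336 at 120 min, and between 0.0552 and 0.195 CPM with KCl. From 30 min on every N library stood above every KCl library in both organs, and at 5 to 20 min they overlapped in both. At 120 min the log2 fold change of the sum was 5.34 (SE 0.572) in the shoot, from 1054 counts with N, against 31 with KCl, and 3.87 (SE 0.516) in the root, from 499 counts with N, against 17 with KCl.

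The share of this sum that each neighbour held was compared between the organs. GRXS3 took 42.1 ± 2.54% of it in shoots with N at 120 min and 6.55 ± 4.17% in roots (SD, n = 3 libraries each). GRXS8 took 4.15 ± 1.08% in shoots and 22.4 ± 2.38% in roots, GRXS4 took 21.2 ± 1.77% in shoots and 40.7 ± 9.41% in roots, and GRXS7 took 9.57 ± 0.379% in shoots and 5.72 ± 0.822% in roots. For these 4 genes the libraries of the organs did not overlap, and an exact two-sided permutation test gave p = 0.1 for each, the smallest that 3 against 3 libraries allow. GRXS5 took 23.0 ± 1.13% in shoots and 24.7 ± 5.15% in roots, with overlap (exact permutation p = 0.7). At time 0, GRXS3 made up all 28 counts of the sum in the shoot, and 8 of 55 in the root, where GRXS8 made up 26. These shares compare the same genes across organs whose count files recorded reads without a unique place differently, and the part of that in the shares was not tested.

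Whether the N effect differed between times was tested within each organ. In the shoot it did for GRXS3 (adjusted p = 0.000148) and GRXS6 (0.000441), 2 of 9 members, where 30.9% of all genes were called. In the root it did for GRXS5 (0.00755), GRXS6 (2.14e-05), GRXS8 (0.011) and GRXS9 (0.0217), 4 of 6 members, where 40.2% of all genes were called. For GRXS4, GRXS7 and GRXS8 in the shoot, whose KCl groups were at or near 0, the test did not pass (adjusted p = 0.844, 0.728 and 0.981), although GRXS4 had 8 counts with N at 45 min and 224 at 120 min.

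GRXS9 and GRXS11 stood apart from the rest. GRXS9 had 1.41, 2.74 and 1.34 CPM in shoots with N at 120 min, against 2.7, 1.68 and 2.98 CPM with KCl, with overlap (log2 fold change -0.43, SE 0.487, adjusted p = 0.534). In the root at 90 min it had 0, 0.0811 and 0.0363 CPM with N, against 0.438, 0.212 and 0.224 CPM with KCl, so all N libraries were below all KCl libraries (4 counts with N, against 38 with KCl, log2 fold change -2.74, SE 0.738, adjusted p = 0.00594, where 8.28% of genes were called lower). Without N replicate 1 the adjusted p was 0.0507. At 120 min the difference was -0.14, and at 10 min the group means were 0.468 ± 0.067 CPM with N and 0.224 ± 0.0776 with KCl, which did not pass the test.

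GRXS11 (CEPD1) was the member with the highest level at time 0 in both organs. In the shoot at 120 min it had 25.6, 27.0 and 22.1 CPM with N, against 41.3, 30.4 and 31.9 CPM with KCl. All N libraries were lower, but the log2 fold change of -0.47 (SE 0.2) had an adjusted p of 0.0595, and the test over all times one of 0.0939. In the root at the same time the order was the other way round, with 11.2, 7.85 and 11.7 CPM with N, against 5.5, 6.67 and 6.33 CPM with KCl (log2 fold change 0.74, SE 0.312, adjusted p = 0.059). At 60 min in the root it was called higher with N (7.86, 10.2 and 17.4 CPM, against 7.8, 6.06 and 5.23 CPM with KCl; log2 fold change 0.88, SE 0.319, adjusted p = 0.0344). That call was lost without KCl replicate 2, KCl replicate 3 or N replicate 3, with adjusted p up to 0.33, and the root test over all times had an adjusted p of 0.0861.

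Differences between the organs in the N effect were tested in a joint fit, shoot minus root. Over all times GRXS6 (adjusted p = 3.76e-11) and GRXS5 (0.0338) differed, 2 of 9 members tested, where 36% of all genes were called. For GRXS6 the log2 fold change was larger in the shoot by 3.06 at 30 min, 3.37 at 45, 2.67 at 60, 3.59 at 90 and 3.91 at 120 min (adjusted p = 0.0473, 0.00408, 0.0119, 0.000174 and 6.01e-06; 0.896, 1.67, 3.74, 7.78 and 9.43% of all genes were called higher at these times). Its N level at 120 min was higher in the shoot as well, 29.1 ± 7.04 CPM in the shoot and 7.73 ± 0.059 in the root. Its KCl level was lower, 0.264 ± 0.187 CPM in the shoot and 1.03 ± 0.26 in the root (SD, n = 3 each). These levels were scaled within each organ, and their difference between the organs was not tested. GRXS5 passed at no single time. For GRXS4, GRXS7 and GRXS8, whose counts were at or near 0 in some groups, the test could show little. The same held for GRXS2 and GRXS3, which had too few root counts to be tested in the root alone. At 120 min the difference was 5.67 for GRXS4 (SE 2.21, adjusted p = 0.0701) and 4.88 for GRXS8 (SE 1.97, adjusted p = 0.0833). For GRXS7 it was 4.15 with an SE of 10538. GRXS11 differed at 120 min by -1.21 (SE 0.383, adjusted p = 0.019, with 6.6% of all genes called lower) and GRXS9 at 90 min by 2.84 (SE 0.938, adjusted p = 0.0307), and both missed the threshold over all times (0.0961 and 0.106). Without the 12 root libraries of 10 and 15 min, GRXS11 passed over all times, with adjusted p = 0.0255. GRXS5 was called over all times in neither the fit without replicate 1 of every group nor that without replicate 3, which left 1 member each.

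**Figure D4:**
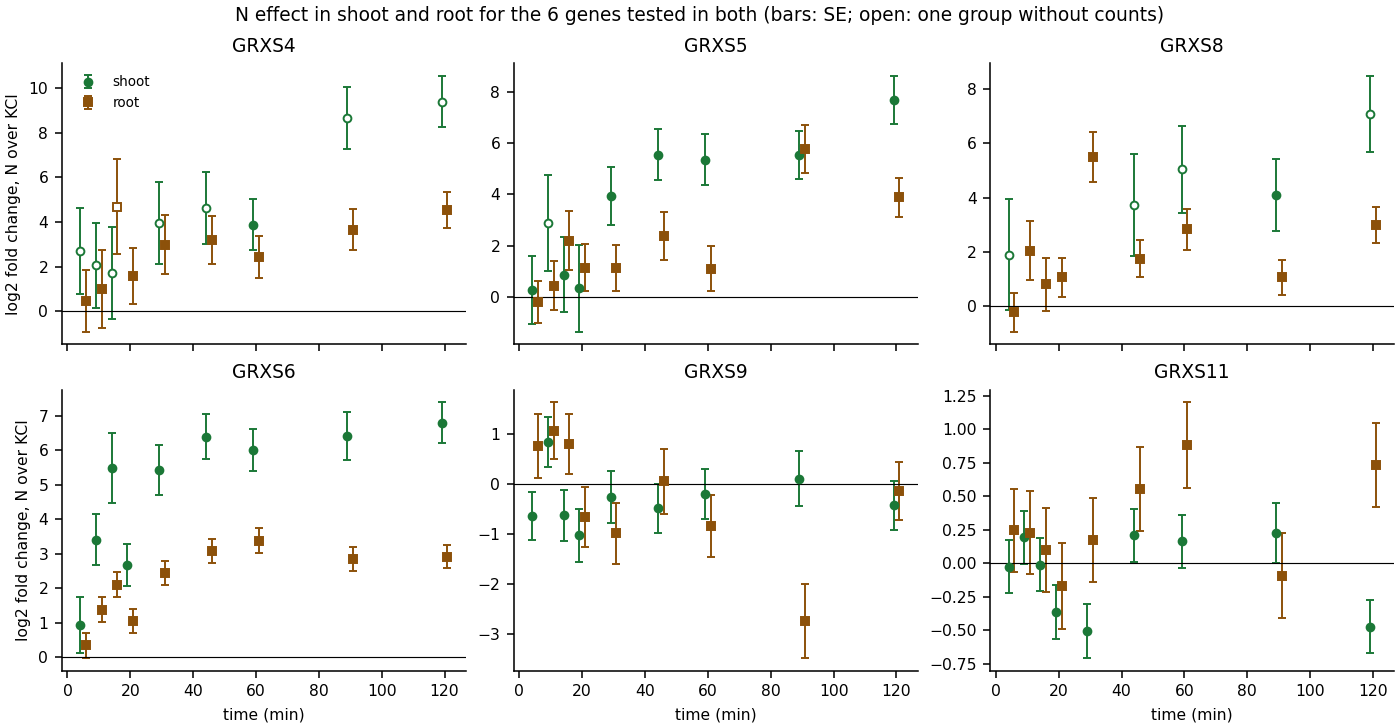
Log2 fold change of N over KCl with its SE (bars) in the shoot and the root at each time in min, for GRXS4, GRXS5, GRXS8, GRXS6, GRXS9 and GRXS11; open points mark a comparison in which a group had no count. GRXS6 lies higher in the shoot at every time, with the difference called from 30 min, and GRXS11 at 120 min lies at -0.47 in the shoot and 0.74 in the root.

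At time 0, before any supply, 6 of 9 members tested differed between the organs, where 36.1% of all genes were called higher and 43.4% lower in the shoot. GRXS2 was higher in the shoot (2.14 ± 1.10 CPM, against 0.0217 ± 0.0188 in the root; log2 fold change of shoot over root 6.40, adjusted p = 2.03e-15), and so were GRXS11 (44.3 ± 5.41 CPM in the shoot and 5.98 ± 1.83 in the root; 2.76, SE 0.279, adjusted p = 8.37e-15), GRXS9 (3.09, adjusted p = 2.2e-08) and GRXS3 (3.18, adjusted p = 0.000413). GRXS8 had 0 counts in the shoot and 26 in the root, at least 2.55-fold lower in the shoot (adjusted p = 0.00354), and GRXS5 had 0 counts in the shoot and 13 in the root, at least 1.28-fold lower (0.0281). GRXS3 and GRXS8 thus lay on opposite sides before N was given, from few counts (28 in the shoot and 8 in the root for GRXS3). The bounds and CPM here were scaled within each organ, while the log2 fold changes and tests came from the joint fit. The count files of the organs recorded reads without a unique place differently. The part of that in these differences of the neighbours was not tested.

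KCl itself was compared with time 0. No untreated group was sampled after time 0, so the salt, the handling and the time passed cannot be told apart here. In the shoot 2 of 9 members were called, where 8.75% of all genes were; at single times 5 of 81 tests were higher and 2 lower, beside 1.18% and 0.73% of all gene tests. GRXS2 was higher with KCl from 30 min on: at 120 min it had 9.69 ± 0.904 CPM, against 2.14 ± 1.10 at time 0 (SD, n = 3 each; log2 fold change 2.20, SE 0.413, adjusted p = 0.00105), and its log2 fold change lay between 1.89 and 2.20 at the 5 times from 30 min. GRXS2 thus rose in the control also, and it was called above that control at 90 and 120 min. GRXS11 was lower with KCl at 45 min (-0.72, SE 0.198, adjusted p = 0.0403) and at 90 min (22.9 ± 1.80 CPM, n = 2, against 44.3 ± 5.41 at time 0, n = 3; -0.95, SE 0.227, adjusted p = 0.0262). Without the 90 min groups, where KCl had 2 libraries, GRXS11 was not called over all times, and 0 members were called without replicate 2 or replicate 3 of every group. In the root 1 of 6 members, GRXS11, was called over all times (adjusted p = 0.0218), where 89.3% of all genes were called; at single times 5 of 54 tests were higher and 1 lower, beside 19.8% and 20.7% of all gene tests. It was higher at 10 min (11.4 ± 5.74 CPM with KCl, against 5.98 ± 1.83 at time 0; 0.93, adjusted p = 0.00715) and at 15 min (10.8 ± 2.28 CPM; 0.85, adjusted p = 0.0143). Those are the times whose root libraries stood apart, and without them GRXS11 was not called and GRXS6 was.

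Levels of different genes were compared per kilobase of transcript. In the shoot at time 0 the order of levels in CPM per kb was GRXS11 (80.6 ± 9.83), GRXS2 (2.45 ± 1.26), GRXS9 (1.90 ± 0.209), GRXS6 (0.49 ± 0.188) and GRXS3 (0.347 ± 0.0991), with GRXS1 at 0.0219 and the other 4 at 0 (SD, n = 3). The SD ranges overlapped for GRXS2 and GRXS9, and for GRXS6 and GRXS3. In shoots with N at 120 min it was GRXS6 (59.9 ± 14.5), GRXS11 (45.3 ± 4.62), GRXS2 (31.4 ± 8.73), GRXS3 (13.3 ± 2.25), GRXS5 (8.44 ± 2.15), GRXS4 (7.34 ± 1.79), GRXS7 (2.99 ± 0.777), GRXS9 (1.95 ± 0.84), GRXS8 (1.11 ± 0.523) and GRXS1 (0.0377 ± 0.0653). The SD ranges overlapped for GRXS6 and GRXS11, GRXS5 and GRXS4, GRXS7 and GRXS9, and GRXS9 and GRXS8, and not for the other neighbours in that order. In roots with N at 120 min it was GRXS11 (18.6 ± 3.81), GRXS6 (15.9 ± 0.121), GRXS4 (1.19 ± 0.248), GRXS5 (0.778 ± 0.261), GRXS8 (0.501 ± 0.13), GRXS3 (0.181 ± 0.131), GRXS9 (0.152 ± 0.0488), GRXS7 (0.149 ± 0.00302), GRXS2 (0.0169 ± 0.0152) and GRXS1 (0). There the SD ranges overlapped for GRXS11 and GRXS6, GRXS4 and GRXS5, GRXS5 and GRXS8, GRXS3 and GRXS9, and GRXS9 and GRXS7.

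The genes whose pattern was most like the summed level of the 5 neighbours were found by Pearson's r over the 19 group means of log2(CPM + 1) in each organ. In the shoot they were AT5G08570 (r = 0.986), annotated as a pyruvate kinase family protein, AT5G52882 (0.985), IDH-VI (0.979), an isocitrate dehydrogenase, AT1G71210 (0.979) and AT1G22270 (0.978). In the root they were AT1G49500 (0.978), AT3G15630 (0.977), ASN1 (0.972), an asparagine synthetase, AT2G31810 (0.960), annotated as a small subunit of acetolactate synthase, and NAS4 (0.959), a nicotianamine synthase. Of members outside the cluster, GRXS6 had r = 0.954 and GRXS2 0.820 in the shoot, whereas GRXS9 had -0.171 and GRXS11 -0.498. In the root GRXS6 had r = 0.908, GRXS11 0.293 and GRXS9 -0.418. The group means share libraries and times, so these values are descriptions.

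Of 11 other CC-type glutaredoxins, 9 were tested in each organ, and 3 were higher and 3 lower with N in each organ, where 47.4% of all genes tested in the shoot and 61% in the root were called over all times. In the shoot AT4G33040 had 49.99 ± 6.90 CPM with N at 90 min (n = 3) and 270 ± 28.7 with KCl (n = 2; log2 fold change -2.44, SE 0.166, adjusted p = 1.74e-15), and AT5G11930 (-1.91, SE 0.174) and AT3G62960 (-1.20, SE 0.159) were lower at 120 min. In the root AT4G33040 was lower as well at 90 min, 12.8 ± 1.97 CPM with N and 86.8 ± 8.66 with KCl (-2.76, SE 0.139, adjusted p = 2.76e-19). ROXY2, which acts with ROXY1 in anther development, had 9.24 ± 1.04 CPM in roots with N at 120 min and 0.428 ± 0.194 with KCl (4.40, SE 0.363), and GRXS13 had 172 ± 29.9 CPM with N at 90 min and 10.8 ± 2.43 with KCl (3.99, SE 0.328). The class thus held genes that moved in both directions. Of 10 glutaredoxins of the CPYC and CGFS classes, all tested, 2 were higher and 1 lower in the shoot and 4 higher and 1 lower in the root, both a smaller share than over all genes. CXIP1, a chloroplast glutaredoxin, was higher in both organs, by 0.73 (SE 0.103) at 120 min in the shoot and 1.22 (SE 0.162) at 60 min in the root.

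Of 15 TGA factors and TOPLESS co-repressors, proteins that several CC-type glutaredoxins bind, 3 were higher and 4 lower in the shoot and 4 higher and 8 lower in the root, against 47.4% of all genes called in the shoot and 61% in the root, so that the shoot share was that of all genes. TGA1, which acts with TGA4 in the nitrate response of roots, had 117 ± 10.9 CPM in shoots with N at 120 min and 38.6 ± 9.82 with KCl (log2 fold change 1.59, SE 0.207), and 556 ± 55.8 CPM in roots with N at 30 min and 150 ± 18.7 with KCl (1.89, SE 0.142; SD, n = 3 each). TGA4 was higher by 1.40 (SE 0.137) at 60 min in the shoot and by 1.42 (SE 0.145) at 30 min in the root. TGA3 was lower at 120 min in the root (-0.83, SE 0.0943) and, given after its value was seen, in the shoot (-0.52, SE 0.123). TPR2, a TOPLESS relative, was higher in the shoot at 90 min (0.38, SE 0.0906) and lower in the root at 120 min (-0.49, SE 0.137). The other co-repressors, given here after their values were seen, included none called higher: TPL and TPR3 were lower in both organs, and TPR1 and WSIP2 were lower in the root and were not called in the shoot (adjusted p = 0.143 and 0.52).

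Of the 6 cytokinin receptors and type-B response regulators, 2 were higher and 4 lower in the shoot and all 6 were lower in the root, where 47.4% of all genes in the shoot and 61% in the root were called. The receptor HK3 was lower in both organs, with log2 fold changes of -0.73 (SE 0.109) at 60 min in the shoot and -0.86 (SE 0.135) at 120 min in the root, and so was the response regulator RR10, with -1.06 (SE 0.127) at 120 min in the shoot and -0.75 (SE 0.152) at 60 min in the root. Of the CEP peptide and receptor genes, which act upstream of GRXS11, 2 were higher and 1 lower of 4 tested in the shoot and 4 were lower of 5 tested in the root, beside the same 47.4% and 61% of all genes. CEPR2, a CEP receptor, was lower in both organs at 45 min (-0.47, SE 0.16 in the shoot; -0.70, SE 0.198 in the root), and the other receptor of the list, CEPR1 (listed as XIP1), was not called in either organ (adjusted p = 0.957 in the shoot and 0.0919 in the root). AT5G66815, of the same list, was higher in the shoot at 45 min (2.59, SE 0.669) and lower in the root at 120 min (-1.79, SE 0.304). Of 4 genes of glutathione synthesis and reduction, 0 were called in the shoot, and in the root GSH2, glutathione synthetase, was higher by 0.70 (SE 0.126) at 10 min while GSH1, which makes its substrate, was lower, with a log2 fold change of -0.60 (SE 0.146) at 45 min, and so was GR1, a glutathione reductase, with -0.51 (SE 0.18) at 120 min. All fold changes of these lists are at the gene's time of smallest p, and each gene given with a fold change passed the test over all times.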

How the data were processed

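Polyadenylated RNA of seedling shoots and roots was sequenced as strand-marked (dUTP) libraries, per the labels' protocols. The deposited files hold raw counts of reads per gene, which the authors made with TopHat2 (version 2), HTSeq and the TAIR10 genome, per the submitters' processing notes, which also name limma; the annotation release, the strand setting and the role of each tool are not given in the sources used here. Each file listed 28712 gene IDs and 5 closing lines that name no gene, which were left out of library sizes and tests. They held 4.20 to 7.78% of the reads listed in shoot files and 9.71 to 53.2% in root files, and 0 pairs of libraries had identical counts.

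Groups came from the sample titles. The treatment tag of N samples names KNO3 alone, and for 1 untreated root library the source field disagrees (shoot) with the title and the organ tag (root); the titles were followed. Libraries under 100000 gene counts were left out (1 shoot library). The counts were fitted with edgeR 4.0.16 in R 4.3.3: filterByExpr (minimum count 10, minimum total 15), TMM scaling, 1 mean per group, quasi-likelihood F-tests, and Benjamini-Hochberg adjustment over the 20899 shoot, 22185 root or 22757 genes of the joint fit, with a threshold of 0.05. The contrast-wise SE is the size of the log2 fold change over the square root of F. Ratios of 1 to 3 counts have exact 95% intervals, bounds use a floor of 3 counts per group, and the fits were tested on simulated data.

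Same-numbered libraries of N and KCl deviated together in some pairs only. A correlation over 0.1 was found in 5 of 26 pairs in the shoot and 11 of 27 in the root. The highest was 0.558 in the shoot and 0.287 in the root, and the medians were -0.036 and 0.049. On these values the numbers were not used as a block in the main fit. Alternatives were RLE scaling, no filter, a minimum count of 30, DESeq2 1.42.0, all libraries, a replicate block, only the compared libraries, leaving out replicates and single libraries, and, chosen after seeing the data, leaving out the root libraries of 10 and 15 min or the shoot groups of 90 min. All members are named. Of each other list, those called with the smallest p over all times are named, at most 3 in an organ, and, for likeness, the 5 genes with the highest r. The members and lists were chosen with earlier results of these data known. The active-site search was written with cysteine as the last residue and widened to serine after it matched 0 members. Sequences and gene models are RefSeq's, build TAIR10.1, whose gene table names none of the members GRXS; those names came with the list of IDs.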

Additional observations from a re-analysis of the deposited data

Results flagged for a closer look

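Differences of the N effect between organs or between times are listed here, by a test of the difference itself (edgeR's quasi-likelihood test, Benjamini-Hochberg adjusted over all genes). The N effect on GRXS6 differed between shoot and root over all times with adjusted p = 3.76e-11, with 0.0473 at 30 and 0.00408 at 45 min, and with 0.0119, 0.000174 and 6.01e-06 at 60, 90 and 120 min; at each of these times the larger log2 fold change was in the shoot. The effect on GRXS5 differed between the organs over all times (0.0338), that on GRXS9 at 90 min (0.0307) and that on GRXS11 at 120 min (0.019). Between times, the N effect in the shoot differed for GRXS3 (0.000148) and GRXS6 (0.000441). In the root it differed for GRXS5 (0.00755), GRXS6 (2.14e-05), GRXS8 (0.011) and GRXS9 (0.0217).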

How the results depend on the processing

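No call of a member at a single time, N against KCl, changed direction in any alternative run that tested it. Directions in the other comparisons were not compared between runs. Of the 28 calls of a member at a time in the shoot, 18 held whichever single library was left out and 10 were lost without at least 1 of them; in the root 13 of 18 held and 5 were lost. GRXS6 at 20 min in the shoot was among those lost, without KCl replicate 1, KCl replicate 2 or N replicate 1 (adjusted p up to 0.0809). Over the time course 7 members were called in the shoot, 5 with DESeq2 and 4 to 6 without a replicate; GRXS3, GRXS4, GRXS5 and GRXS6 were called in each of these fits. In the root 5 were called, and 4 to 5 without a replicate. A minimum count of 30 left 1 root member called over the time course (GRXS6), 8 of the 18 root calls at single times and 1 root member whose effect differed between times, because it left fewer members to test. The members whose N effect differed between times numbered 2 in the shoot, 4 with DESeq2 and 0 to 2 without a replicate, and 4 in the root, 1 to 2 without a replicate. For KCl against time 0 the shoot count was 2, 0 to 1 without a replicate and 1 without the 90 min groups; the root count was 1, 3 with DESeq2, 2 with the replicate block and 0 to 2 without a replicate. The count of members whose N effect differed between organs was 2, and 1 to 2 without a replicate. The causes of these shifts were not tested. With the replicate block 7 shoot and 5 root members were called over the time course, and it changed no other of these counts by over 1.5 times. GRXS11 in the root was called over the time course with DESeq2 (adjusted p = 0.0424) and without the libraries of 10 and 15 min (0.0294), and GRXS9 was lost there without replicate 1 (0.254) or replicate 3 (0.282). Over all genes, counts moved by over 1.5 times without a replicate: over the time course in the root, 13524 genes, or 8708 to 9753; between organs, 8190, or 3880 to 5388; between times, 6454 in the shoot, or as few as 3707, and 8912 in the root, or as few as 2718; for KCl in the shoot, 1828, or 270 to 668, and 3087 with DESeq2; for single times, 28831 in the shoot, or as few as 19027, and 33334 in the root, or 18824 to 22103. Summing the 5 neighbours as 1 feature moved the log2 fold change at 120 min by at least the single gene's SE in 6 of 8 cases. Depth limits the members of few counts most: GRXS1 in both organs, and GRXS2, GRXS3 and GRXS7 in the root, could not be tested.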
